A study of Saccharomyces cerevisiae with 6 samples.

Results

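The 40 genes described here are GCN4 and 39 genes of amino acid synthesis, 38 of them for enzymes or enzyme subunits and 1, LEU3, for a regulator. They were chosen by gene name, with results of these data already known, as members of 5 pathways that lead to histidine, the branched-chain amino acids, the aromatic amino acids, lysine and arginine. All 40 were found among the 6445 genes of the deposited tables, and all 40 passed the filter on low counts, so they are read within a test of 6125 genes. The samples were 3 libraries of a β-carotene-producing strain of Saccharomyces cerevisiae with the genotype label CrtI/E/YB, after carotenoid synthesis genes, and 3 libraries of its parent CEN.PK2-1C, labelled WT. Both strains grew in YPD, a rich glucose medium that supplies amino acids, for 18 h at 30 °C with shaking. CEN.PK2-1C is a haploid laboratory strain with loss-of-function alleles of HIS3, LEU2, TRP1 and URA3, so 2 of the 40 genes, HIS3 and LEU2, are also auxotrophic markers. The labels do not say how the carotenoid genes were introduced, which markers were used, or whether the replicates were separate cultures or clones, so the tests weigh strain differences against a spread among libraries that may be purely technical.

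Gcn4 is the transcription activator of the general amino acid control of yeast. When amino acids run short, uncharged tRNA activates the kinase Gcn2, and the resulting slowdown of translation initiation lets ribosomes reach the GCN4 reading frame, whose translation is otherwise held down by short upstream reading frames. Gcn4 protein then binds promoters of amino acid synthesis genes, many of which also answer to a pathway regulator such as Leu3 for the branched-chain genes or Lys14 for the lysine genes. GCN4 is therefore controlled largely at translation and protein turnover, which transcript counts do not measure.

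The sequence that Gcn4 binds is shown first, as background to the 40 genes. The core TGACTC, searched on both strands from 250 bases before to 50 bases after the gene start of the RefSeq annotation (build R64, the assembly behind sacCer3), was present in 22 of the 40 promoters (55%), against 493 of all 6171 protein-coding promoters searched (7.99%). With the next base, TGACTCA, it was in 16 of 40 (40%) against 164 of 6171 (2.66%). By pathway the core was in 6 of 7 histidine, 7 of 12 branched-chain, 4 of 8 aromatic, 3 of 7 lysine and 2 of 5 arginine promoters. The window of GCN4 itself had 0. The gene start is here the start of the coding sequence, so a window can hold transcribed leader as well as promoter. The longer motif contains the core, so the counts overlap. A match describes these letters in this window, and no match says nothing about binding elsewhere. In each pathway, the gene with a TGACTCA match whose level varied most among the 6 libraries is shown with 10 flanking bases, read on the strand that holds TGACTCA, which is in capitals.
HIS4, chrIII:68516-68542, minus strand, 199 bases before the start: ccatgcacagTGACTCAcgttttttta
ILV5, chrXII:839377-839403, minus strand, 140 bases before the start: tgacctaactTGACTCAatggctttta
TRP3, chrXI:38260-38286, minus strand, 123 bases before the start: aatggctcgtTGACTCAttctaatcta
LYS1, chrIX:420970-420996, plus strand, 250 bases before the start: gagtctttttTGACTCAtcgacttagt
ARG4, chrVIII:141565-141591, minus strand, 179 bases before the start: agtagatgaaTGACTCActttttggat

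Whole promoter windows are given for 3 genes that show how the binding letters of Gcn4, Leu3 and Lys14 are arranged. HIS4 holds 2 copies of TGACTC, at 243 and 199 bases before the start. BAT1 holds TGACTC at 171 bases and the Leu3 letters, CCGG then any 2 bases then CCGG, at 147 bases before the start. LYS9 holds 2 copies of the Lys14 letters TCCNNNGGA, at 225 and 163 bases, and no TGACTC. The Leu3 letters were in 9 of 6171 promoters (0.146%), and 3 of those 9 belong to LEU1, LEU2 and BAT1. The Lys14 letters were in 211 of 6171 (3.42%) and in 3 of the 7 lysine promoters, LYS1, LYS9 and LYS12. Each window runs 5′ to 3′ on the strand of its gene, with the named letters in capitals.
HIS4, chrIII:68284-68583, minus strand: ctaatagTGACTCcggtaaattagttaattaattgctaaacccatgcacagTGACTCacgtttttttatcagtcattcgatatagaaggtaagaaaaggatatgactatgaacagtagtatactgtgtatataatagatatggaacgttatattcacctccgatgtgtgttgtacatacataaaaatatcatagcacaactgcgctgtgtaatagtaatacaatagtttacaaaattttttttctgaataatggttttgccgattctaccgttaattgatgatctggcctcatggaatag
BAT1, chrVIII:517282-517581, plus strand: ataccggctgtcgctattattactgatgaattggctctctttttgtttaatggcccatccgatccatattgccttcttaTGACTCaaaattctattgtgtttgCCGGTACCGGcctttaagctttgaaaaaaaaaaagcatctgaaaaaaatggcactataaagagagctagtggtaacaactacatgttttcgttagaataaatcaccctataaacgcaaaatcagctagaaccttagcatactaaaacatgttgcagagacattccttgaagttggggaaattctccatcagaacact
LYS9, chrXIV:715339-715638, minus strand: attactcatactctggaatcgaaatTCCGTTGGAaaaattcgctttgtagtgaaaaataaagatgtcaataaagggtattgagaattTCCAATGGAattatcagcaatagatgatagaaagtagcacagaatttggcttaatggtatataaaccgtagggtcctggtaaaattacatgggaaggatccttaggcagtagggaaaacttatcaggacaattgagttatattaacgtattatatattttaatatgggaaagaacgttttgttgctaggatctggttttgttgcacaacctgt

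Depth was 56.8, 58.3 and 57.0 M (M, 1e6) estimated counts for the producer, against 57.5, 48.7 and 48.4 M for the parent. Levels are given as CPM, counts per 1e6 counts of a library after TMM scaling. Fold change followed base composition: over the 6066 tested genes of known GC content, the Spearman correlation between the 2 was 0.633, given as a description because genes are not independent. The 40 genes had a median GC content of 42.4% against 39.8% for all tested genes, so a GC-corrected log2 fold change is given beside each one that the correction moved by over 1.5 times or across 0. The RefSeq annotation has no gene that overlaps any of the 40 on either strand.

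None of the 40 genes passed the test between producer and parent. In edgeR's quasi-likelihood test over 6125 genes, with an adjusted p under 0.05 as the threshold, 0 of 40 were higher and 0 lower, where 70 of all tested genes passed (1.14%), 49 higher (0.800%) and 21 lower (0.343%). DESeq2 called 842 genes (14.6% of those given an adjusted p) and limma-voom 64 (1.04%), and 0 of the 40 were among them in either tool. At an unadjusted p under 0.05 there were 2 of 40 (5%), HIS2 and LYS9, against 27.3% of all tested genes, and the same 2 were the members whose producer and parent libraries did not overlap, against 33.7% of all tested genes. The log2 fold changes, producer over parent, ran between -0.19 (LYS9) and 0.61 (HIS3), with a median of 0.15 against -0.01 for all tested genes. Of the 40, 32 had a positive value (80%), against 48.5% of all tested genes, and after the GC-content correction 26 had one and the median was 0.08. The plot of fold changes with their intervals shows how wide they were. The 95% interval lay within a change of 1.5-fold in either direction for 25 of the 40 genes (62.5%), against 81.8% of all tested genes. It reached beyond 1.5-fold for 15 of the 40, and lay within 2-fold for 38, all but HIS3 and ARG1. The median SE of the log2 fold change was 0.14 for the 40 genes and 0.09 for all tested genes. In pellets of whole cultures, a level that differs in all cells and one that differs in a fraction of the cells cannot be told apart.

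**Figure D1:**
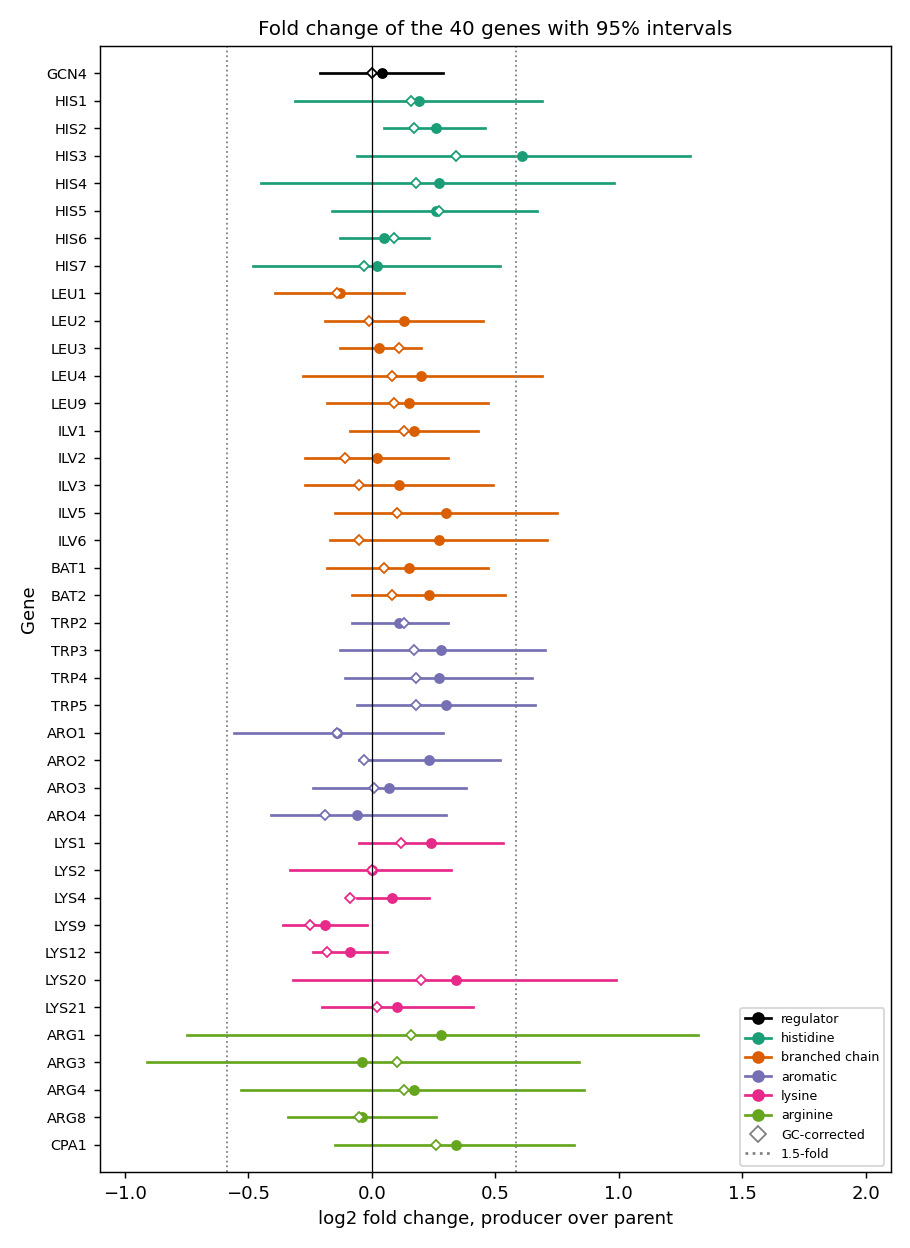
The log2 fold change of each of the 40 genes, producer over parent, is on the horizontal axis (points) with its 95% interval (lines), coloured by pathway. Open diamonds are values after the GC-content correction and dotted lines mark 1.5-fold. All intervals except those of HIS2 and LYS9 span 0, and those of ARG1, ARG3, ARG4, HIS3, HIS4 and LYS20 are among the widest.

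GCN4 (YEL009C, chromosome V, 138918 to 139763) differed less between the strains than between libraries of a strain. It had 693, 738 and 619 CPM in the producer libraries and 713, 592 and 688 CPM in the parental ones. The groups overlapped, and the lowest library was replicate 3 in the producer and replicate 2 in the parent. The mean was 683 ± 59.7 CPM in the producer and 664 ± 63.7 CPM in the parent (SD, n = 3 each), a log2 fold change of 0.04 ± 0.11 (SE) with an edgeR adjusted p of 0.834, or -0.005 with GC content corrected for. The 95% interval of -0.21 to 0.29 leaves out a change of 1.5-fold. The genes listed for control of GCN4 translation and turnover include the kinase GCN2, its partners GCN1 and GCN20, and the cyclin PCL5. They also include subunits of the nucleotide exchange factor for initiation such as GCD1 and GCN3. Of these 14 genes, 0 passed the threshold, against 1.14% of all tested genes. Their median log2 fold change was 0.01, or 0.06 after the GC-content correction. The smallest adjusted p among them belonged to YIH1, an inhibitor of Gcn2 activation, at 0.45 ± 0.16 (edgeR adjusted p = 0.122) or 0.06 after the GC-content correction, and to GCN2, at -0.19 ± 0.08 (edgeR adjusted p = 0.149) or -0.02 after it.

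The same 2 libraries were the low ones for most of the 40 genes. Replicate 3 was the lowest of the producer libraries for 35 of the 40 genes (87.5%), against 41.5% of all tested genes, and replicate 2 was the lowest of the parental libraries for 39 (97.5%), against 40.1%. Both held for 35 of the 40 genes (87.5%), against 26.4% of all tested genes. Replicate 2 was the highest producer library for 34 of the 40 (85%), against 28.6%. The exception in the parent was LYS9, which was highest in parental replicate 2. In the producer the exceptions were HIS6, LEU1, LEU3, LYS4 and LYS9, in which replicate 3 was not the lowest. As a deviation of each gene from its 6-library mean, the median of the 40 genes stood at 0.16, 0.23 and -0.12 (log2) in the producer, against 0.12, -0.41 and 0.06 in the parent, and medians of all tested genes stayed within 0.01 of 0. After the GC-content correction these medians were 0.08, 0.18 and -0.14 in the producer, against 0.10, -0.26 and 0.09 in the parent. Producer replicate 3 held 57.0 M counts, and parental replicates 2 and 3 held 48.7 and 48.4 M. The labels give no date or batch, and what set these libraries apart was not tested. Without producer replicate 3 and parental replicate 2, a choice made after seeing the data, 0 of the 40 genes passed in edgeR, where 3.66% of all tested genes did, and the median log2 fold change of the 40 was 0.08. Without parental replicate 2 alone that median was -0.01, and without producer replicate 3 alone or parental replicate 1 alone it was 0.24.

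**Figure D2:**
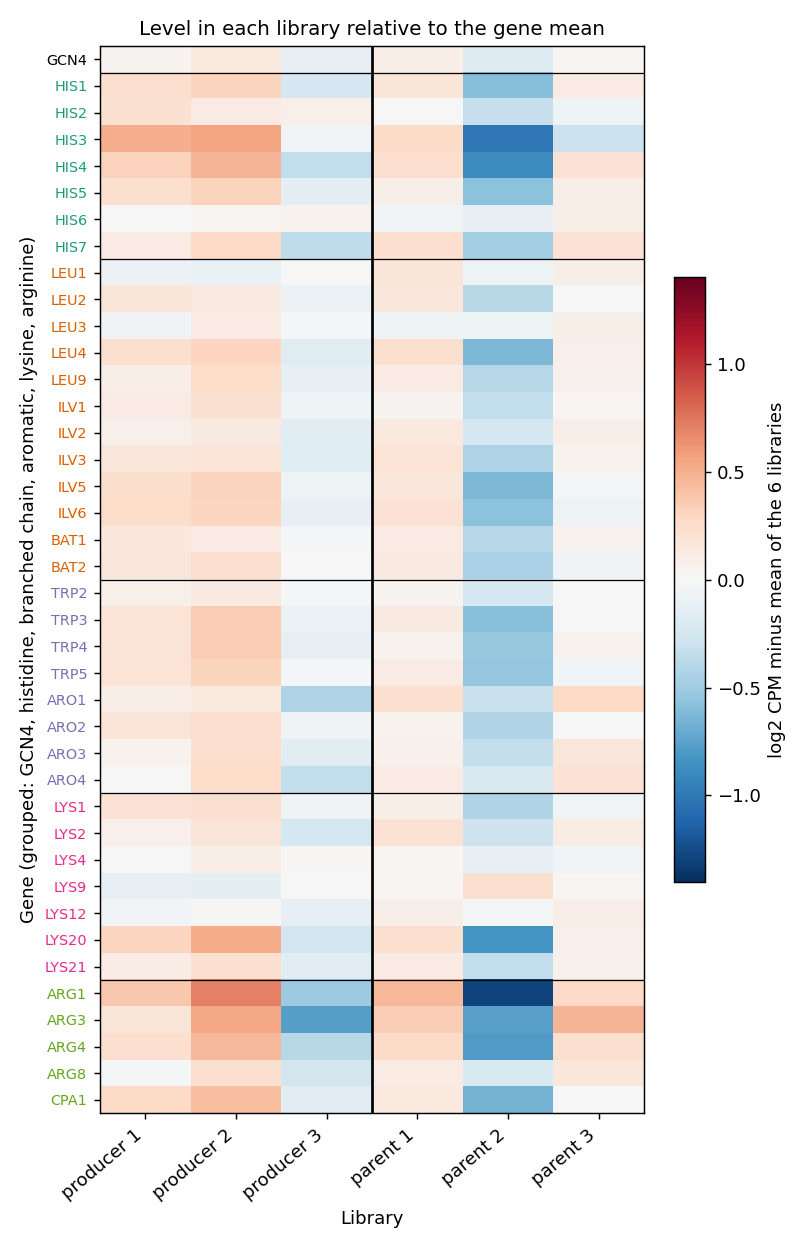
Each row is a gene, grouped by pathway, and each column a library, with the 3 producer libraries on the left. Colour is the log2 CPM minus the mean of the 6 libraries. The blue columns are parental replicate 2 and, more weakly, producer replicate 3. In parental replicate 2 the strongest colour is that of ARG1, followed by HIS3, HIS4, LYS20, ARG4 and ARG3.

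The spread over all 6 libraries, which holds the strain difference as well as the spread within a strain, varied by gene and pathway. The ratio of the highest to the lowest of the 6 libraries had a median of 1.57 over the 40 genes, against 1.29 over all tested genes. It was 2.37 for the arginine, 1.83 for the histidine, 1.6 for the aromatic, 1.5 for the branched-chain and 1.4 for the lysine genes. ARG1 had the largest ratio, 4.02, followed by HIS3 (2.91), HIS4 (2.58), LYS20 (2.57), ARG3 (2.49) and ARG4 (2.37). At the other end stood LEU3, HIS6, LYS12 and LYS4, each at 1.15, and LEU1 at 1.2. Within the producer alone the median ratio of highest to lowest library was 1.30 against 1.12 for all tested genes, and within the parent 1.45 against 1.17. By pathway, producer then parent, these medians were 1.79 and 2.09 for the arginine, 1.47 and 1.65 for the histidine and 1.33 and 1.45 for the aromatic genes. For the branched-chain genes they were 1.21 and 1.45, and for the lysine genes 1.2 and 1.38. HIS3 was at 1.5 within the producer and 2.41 within the parent. The 22 genes with TGACTC in the promoter window had a median ratio of 1.67 over the 6 libraries (1.15 to 2.91), and the 17 without it, GCN4 left out, 1.52 (1.15 to 4.02), ranges that overlap almost fully.

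The 2 strains can be read separately, since a ratio within the producer and a ratio within the parent share no library. Producer replicate 2 over producer replicate 3 had a median log2 ratio of 0.39 over the 40 genes, and parental replicate 1 over parental replicate 2 one of 0.53, against 0.01 in each strain for the 5539 genes of at least 10 CPM. Both ratios were above 0 for 37 of the 40 genes (92.5%), against 33.2% of the genes of at least 10 CPM. Both reached 0.5 for 10 of the 40 (25%), against 0.957%, and 4 of these 10 were arginine and 4 were histidine genes. Genes outside the 40 reached it as well. Picked as examples, the purine synthesis genes ADE4 (0.87 in the producer and 1.19 in the parent) and ADE17 (0.74 and 1.18) did, but ADE8 (0.12 and 0.48) did not. The libraries in these ratios were picked after their values were seen, so the counts describe these libraries and carry no test. Across the 6066 genes with a known GC content the Spearman correlation with GC content was 0.0906 for the producer ratio and 0.630 for the parental ratio.

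**Figure D3:**
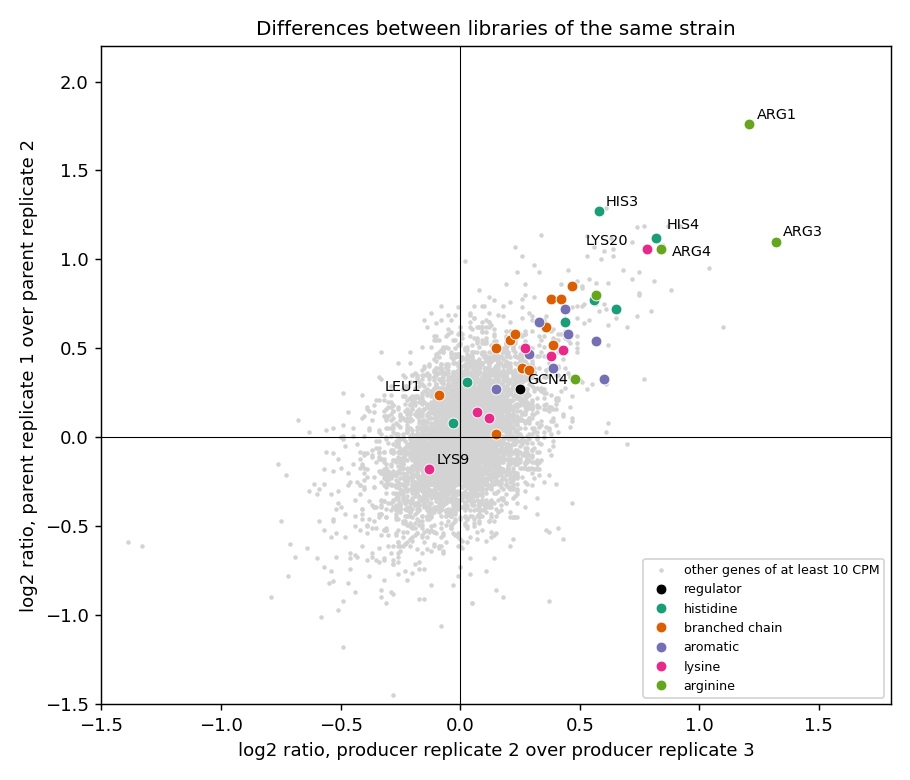
For each gene of at least 10 CPM, the log2 ratio of producer replicate 2 to producer replicate 3 is on the horizontal axis and that of parental replicate 1 to parental replicate 2 on the vertical axis. Grey points are other genes and coloured points are the 40 genes by pathway. Of the 40, 37 lie above 0 on both axes, with ARG1 highest and ARG3 farthest right, and LYS9 lies in the lower left.

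The histidine genes make 1 amino acid from a phosphoribosyl precursor in a linear pathway. HIS1 encodes the phosphoribosyltransferase of the first step, and it had 423, 443 and 302 CPM in the producer libraries and 400, 235 and 389 CPM in the parental ones, a log2 fold change of 0.19 ± 0.22. HIS4 (YCL030C, chromosome III, 65934 to 68333), a multifunctional enzyme of early steps and of the last one, had 1610, 1798 and 1016 CPM in the producer and 1509, 696 and 1475 CPM in the parent. In both genes parental replicate 2 was the lowest of the 6 libraries and producer replicate 3 the next, and the groups overlapped. HIS4 had a log2 fold change of 0.27 ± 0.31 (SE) and a 95% interval of -0.45 to 0.98, which holds a rise of 1.5-fold but not a drop of that size, and it was 0.18 ± 0.31 after the GC-content correction. HIS7, the synthase that closes the imidazole ring, was at 0.02 ± 0.22, or -0.03 after the correction, and HIS5, the aminotransferase, at 0.26 ± 0.18. HIS6, the isomerase of an early step, was the steadiest member of the pathway. It had 52.9, 53.8 and 54.8 CPM in the producer and 51.4, 48.7 and 55.9 CPM in the parent. The log2 fold change of HIS6 was 0.05 ± 0.08, or 0.09 after the correction.

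HIS2, the histidinol phosphatase, had 104, 96.3 and 94.2 CPM in the producer libraries and 88.6, 71.6 and 86.1 CPM in the parental ones, so every producer library was above every parental one. Its mean was 98.1 ± 4.98 CPM in the producer and 82.1 ± 9.21 CPM in the parent (SD, n = 3 each). The log2 fold change of 0.26 ± 0.09 did not pass, with an edgeR adjusted p of 0.121, and was 0.17 ± 0.07 after the GC-content correction. The histidine genes had a median log2 fold change of 0.26, and 0.17 after the correction. Of the 7, 0 passed the threshold, against 1.14% of all tested genes.

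HIS3, the imidazoleglycerol-phosphate dehydratase, is the marker gene whose parental allele is defective, and counts assigned to it may come from the remaining transcript. It had 111, 114 and 76.0 CPM in the producer libraries and 94.2, 39.1 and 63.3 CPM in the parental ones. The producer libraries replicate 1 and 2 were the highest, and producer replicate 3 lay below parental replicate 1. The mean was 100 ± 21.1 CPM in the producer and 65.5 ± 27.6 CPM in the parent (SD, n = 3 each), a log2 fold change of 0.61 ± 0.29 with a 95% interval of -0.06 to 1.29 and an edgeR adjusted p of 0.216. With a GC content of 49.0% HIS3 is among the GC-rich members, and after the correction it was at 0.34 ± 0.26. Leaving out parental replicate 1 gave 0.97 (edgeR adjusted p = 0.0468), a setting in which 17.5% of all tested genes passed, and its adjusted p ran between 0.0468 and 0.529 over all settings. LEU2, the other marker, had 661, 642 and 556 CPM in the producer and 657, 450 and 593 CPM in the parent, with overlapping groups and a log2 fold change of 0.13 ± 0.14, or -0.01 after the correction. The markers outside the 40 genes, TRP1 at 0.18 ± 0.08, or 0.10 after the correction, and URA3 at 0.10 ± 0.09, or -0.02 after it, did not pass either.

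**Figure D4:**
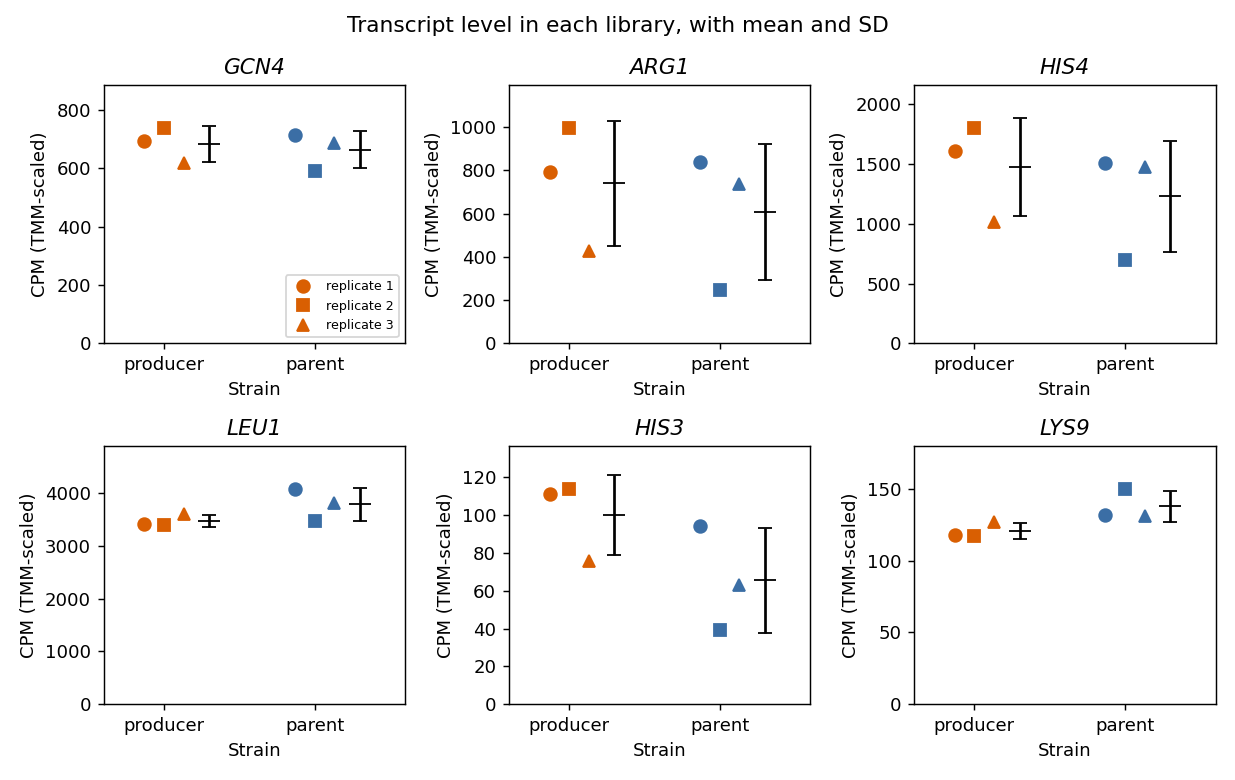
CPM of 6 genes in each library is on the vertical axis, with producer libraries on the left and parental libraries on the right of each panel; symbols mark replicates 1 to 3, and bars the mean and SD of 3 libraries. In GCN4, ARG1, HIS4 and HIS3 producer replicate 3 and parental replicate 2 are the lowest of their strain, whereas LEU1 and LYS9 do not follow that order in the producer.

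The branched-chain genes make isoleucine, valine and leucine, with shared steps in mitochondria. Per coding length they include the most abundant of the 40 genes. ILV5, the acetohydroxyacid reductoisomerase, stood at 1676 ± 225 CPM per coding kb in the producer and 1360 ± 358 in the parent (SD, n = 3 each). LEU1, the isopropylmalate isomerase, stood at 1480 ± 48.5 in the producer and 1617 ± 132 in the parent, so these 2 genes exchanged places between the strains, by less than the SDs of the ILV5 and LEU1 levels together. BAT1, the mitochondrial branched-chain aminotransferase, followed with 1114 ± 70.7 in the producer and 1007 ± 181 in the parent. GCN4 ranked 4 in both strains, at 808 ± 70.6 CPM per coding kb in the producer and 785 ± 75.3 in the parent. From ILV5 to the least abundant gene, LEU3, at 47.9 ± 3.16 in the producer and 46.7 ± 2.72 in the parent, the range was 35.0-fold in the producer, and from LEU1 to LEU3 it was 34.6-fold in the parent.

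LEU1 (YGL009C, chromosome VII, 476313 to 478652) was the branched-chain gene with a negative fold change. It had 3412, 3386 and 3594 CPM in the producer libraries and 4078, 3461 and 3810 CPM in the parental ones. Producer replicate 3, low for most of the 40 genes, was the highest producer library here, and the groups overlapped. The log2 fold change was -0.13 ± 0.11 (SE) with an edgeR adjusted p of 0.481. The other 11 were positive, between 0.02 for ILV2, the catalytic subunit of acetolactate synthase, and 0.30 for ILV5, and 7 of the 12 were positive after the GC-content correction, which put ILV2 at -0.11 and ILV5 at 0.10. ILV6, the regulatory subunit, was at 0.27 ± 0.19, and at -0.05 ± 0.13 after the GC-content correction; its GC content is 50.1%. ILV1, threonine deaminase, was at 0.17 ± 0.12 and ILV3, the dihydroxyacid dehydratase, at 0.11 ± 0.17, or -0.05 after the correction. LEU3, the regulator that binds the letters in the LEU1, LEU2 and BAT1 promoters, was at 0.03 ± 0.07, or 0.11 after the correction, with 122, 137 and 124 CPM in the producer and 121, 119 and 133 CPM in the parent. The pathway had 0 of 12 past the threshold, against 1.14% of all tested genes. Its median was 0.15, or 0.06 after the correction.

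The aromatic genes comprise the shikimate pathway to chorismate and the branch to tryptophan. ARO3 and ARO4, the feedback-inhibited synthases of the entry step, were at 0.07 ± 0.14 and -0.06 ± 0.16, or 0.01 and -0.19 with GC content corrected for. ARO1, the multifunctional enzyme of the middle steps, had 319, 330 and 222 CPM in the producer libraries and 352, 242 and 363 CPM in the parental ones, a log2 fold change of -0.14 ± 0.19 with overlapping groups. ARO2, chorismate synthase, was at 0.23 ± 0.13, or -0.03 after the GC-content correction. The tryptophan genes were all above 0, TRP2, anthranilate synthase, at 0.11 ± 0.09, TRP4, the phosphoribosyltransferase, at 0.27 ± 0.17, TRP3, which carries a glutamine amidotransferase and the indoleglycerol phosphate synthase, at 0.28 ± 0.18, and TRP5, tryptophan synthase, at 0.30 ± 0.16. Each kept a positive value after the correction, between 0.13 and 0.18. TRP5 had 377, 408 and 324 CPM in the producer and 356, 227 and 321 CPM in the parent, and its groups overlapped by parental replicate 1. The aromatic genes had 0 of 8 past the threshold, against 1.14% of all tested genes. Their median was 0.17, or 0.07 after the correction.

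The lysine genes follow the α-aminoadipate route of fungi and hold the member with the lowest fold change. LYS9 (YNR050C, chromosome XIV, 714048 to 715388), the glutamate-forming saccharopine dehydrogenase, had 118, 117 and 127 CPM in the producer libraries and 132, 150 and 131 CPM in the parental ones. Every producer library was below every parental one. The mean was 121 ± 5.88 CPM in the producer and 138 ± 10.5 CPM in the parent (SD, n = 3 each), a log2 fold change of -0.19 ± 0.07 (SE) that did not pass (edgeR adjusted p = 0.15). With GC content corrected for it was -0.25 ± 0.08 (edgeR adjusted p = 0.15). LYS12, the homoisocitrate dehydrogenase, was at -0.09 ± 0.07, or -0.18 ± 0.06 after the correction with an edgeR adjusted p of 0.142. LYS1, the lysine-forming saccharopine dehydrogenase of the last step, was on the other side of 0, at 0.24 ± 0.13, or 0.12 ± 0.09 after the correction, and its promoter also holds the Lys14 letters. LYS4, homoaconitase, was at 0.08 ± 0.06, or -0.09 after the correction, and LYS2, the aminoadipate reductase, averaged 242 ± 36.4 CPM in the producer and 243 ± 41.4 CPM in the parent. The lysine genes had 0 of 7 past the threshold, against 1.14% of all tested genes. Their median was 0.08, or 0.00 after the correction.

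LYS14, the activator of the lysine genes, is not among the 40 and had the smallest adjusted p of the other genes of these pathways. It had 114, 117 and 111 CPM in the producer libraries and 131, 152 and 139 CPM in the parental ones, which did not overlap. Its log2 fold change of -0.30 ± 0.07 (SE) did not pass, with an edgeR adjusted p of 0.0698, and was -0.12 ± 0.05 after the GC-content correction, its GC content being 36.1%. ARG80, a regulator of arginine genes, came next at 0.46 ± 0.15 (edgeR adjusted p = 0.104), or 0.12 ± 0.09 after the correction. In this list of remaining enzymes and regulators of the same pathways, 0 of 15 passed, against 1.14% of all tested genes. The median of the list was 0.06, or 0.10 after the GC-content correction.

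The arginine genes varied most among libraries, and their strain differences were the least certain. ARG1 (YOL058W, chromosome XV, 219211 to 220473), argininosuccinate synthetase, had 793, 995 and 429 CPM in the producer libraries and 837, 248 and 736 CPM in the parental ones. The highest library exceeded the lowest by 2.32 times within the producer and by 3.38 times within the parent. Against that spread the mean was 739 ± 287 CPM in the producer and 607 ± 315 CPM in the parent (SD, n = 3 each), a log2 fold change of 0.28 ± 0.45 with a 95% interval of -0.75 to 1.32, or 0.16 ± 0.49 after the GC-content correction. ARG3, ornithine carbamoyltransferase, had 246, 318 and 128 CPM in the producer and 276, 129 and 304 CPM in the parent, so the low library of each strain was at nearly the same level, and its log2 fold change was -0.04 ± 0.38, or 0.10 after the correction. ARG4, argininosuccinate lyase, had 607, 706 and 394 CPM in the producer and 621, 298 and 601 CPM in the parent, a log2 fold change of 0.17 ± 0.30. CPA1, the small subunit of the arginine-specific carbamoyl phosphate synthetase, was at 0.34 ± 0.21, and ARG8, the acetylornithine aminotransferase, was the steadiest of the 5, at -0.04 ± 0.13. The pathway had 0 of 5 past the threshold, against 1.14% of all tested genes. Its median was 0.17, or 0.13 after the GC-content correction. Of the 5 arginine intervals, that of ARG8 lay within 1.5-fold and those of the other 4 reached past it.

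**Figure D5:**
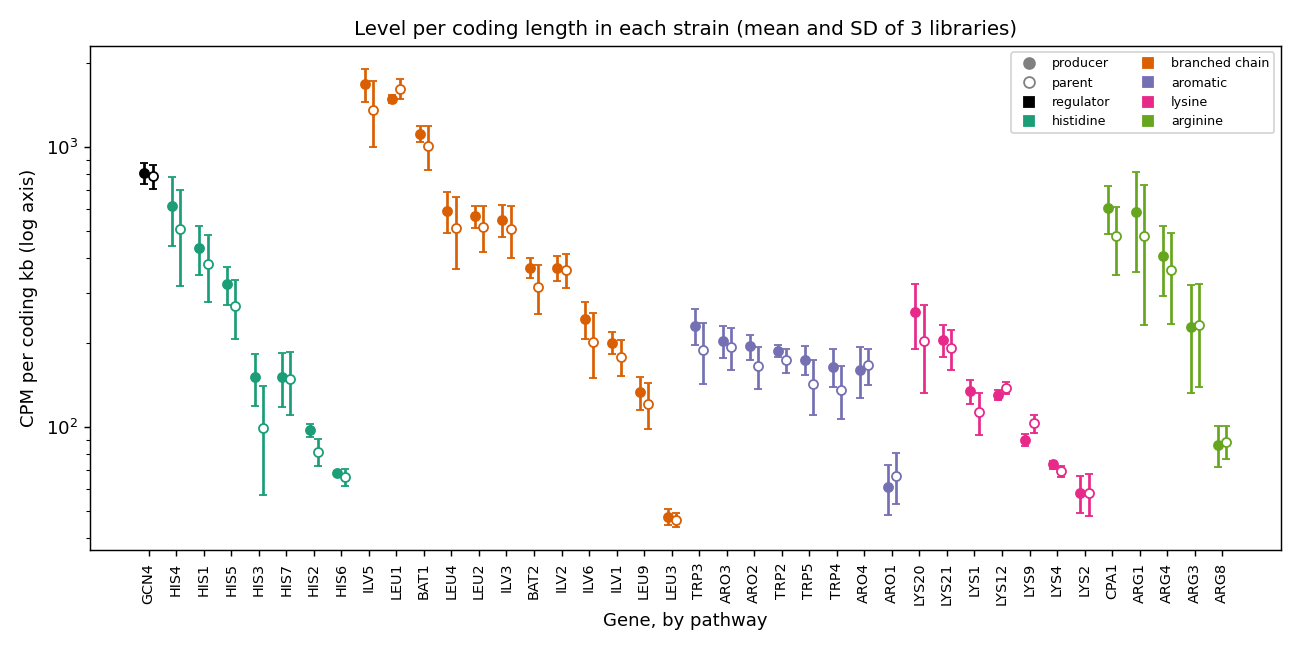
The mean CPM per coding kb of each gene (points, log axis) with the SD of 3 libraries (bars) is shown for the producer (filled, left) and the parent (open, right), ordered by level within each pathway. The strains lie close together for each gene beside a 35.0-fold range between genes in the producer, and the arginine genes ARG1, ARG3 and ARG4 have wide bars.

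For 4 steps the genome holds 2 genes, which gives a comparison within each library that a scale factor of the library cannot move. This comparison was not corrected for GC content, which differs within pairs, such as 41.8% for ARO3 and 43.8% for ARO4. The ratio of counts per coding kb, on the log2 scale, was compared between strains with an exact permutation test, two-sided, in which 3 against 3 libraries cannot give a p below 0.10. BAT1 over BAT2, the mitochondrial over the cytosolic aminotransferase, was 1.61, 1.54 and 1.62 in the producer libraries, against 1.61, 1.68 and 1.73 in the parental ones, a difference of -0.09 (exact p = 0.3). LEU4 over LEU9, the isopropylmalate synthases, was 2.24, 2.14 and 2.06 in the producer, against 2.21, 1.88 and 2.12 in the parent, a difference of 0.08 (exact p = 0.6). In both pairs the more abundant gene was the same in all 6 libraries. ARO3 over ARO4 was 0.35, 0.26 and 0.46 in the producer, against 0.22, 0.17 and 0.24 in the parent, and every producer library lay above every parental one, by a difference of 0.14 (exact p = 0.1, or 0.4 adjusted over the 4 pairs). LYS20 over LYS21, the homocitrate synthases, was 0.36, 0.47 and 0.06 in the producer, against 0.26, -0.33 and 0.18 in the parent, a difference of 0.26 (exact p = 0.4). LYS20 was thus the more abundant gene in all libraries except parental replicate 2. The coding sequences of LYS20 and LYS21 are 92.2% identical and those of LEU4 and LEU9 81.1%, so reads may be shared between them and these 4 genes are uncertain, while BAT1 and BAT2 are 72.3% and ARO3 and ARO4 69.5% identical. Taken singly, BAT1 was at a log2 fold change of 0.15 ± 0.14 (0.05 after the GC-content correction), BAT2 at 0.23 ± 0.14 (0.08), LEU4 at 0.20 ± 0.21 (0.08), LEU9 at 0.15 ± 0.14 (0.09), LYS20 at 0.34 ± 0.28 (0.20) and LYS21 at 0.10 ± 0.13 (0.02), none of which passed in edgeR.

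Genes for other amino acids were counted in the same way. Of the 18 listed for threonine, serine, asparagine, glutamine, glutamate, proline and glycine synthesis, 0 passed and 17 had a positive log2 fold change (94.4%). Groups did not overlap for 3 (16.7%), and the median was 0.16, or 0.09 after the GC-content correction. Among all tested genes 1.14% passed, 48.5% had a positive value and 33.7% had groups that did not overlap. The smallest adjusted p of the 18 belonged to THR1, homoserine kinase, at 0.53 ± 0.16 (edgeR adjusted p = 0.0989) or 0.27 ± 0.10 after the correction. GDH1, the NADP-linked glutamate dehydrogenase, came next at 0.56 ± 0.18 (edgeR adjusted p = 0.107) or 0.40 ± 0.14 after the correction. GDH1 had 1901, 2010 and 1641 CPM in the producer libraries and 1470, 904 and 1400 CPM in the parental ones, which did not overlap. Producer replicate 3 and parental replicate 2 were each the lowest library of their strain in 17 of these 18 genes (94.4%), in 8 of the 15 remaining genes of the same pathways (53.3%) and in 6 of the 14 genes of GCN4 control (42.9%), against 26.4% of all tested genes. Differences between these lists were not tested.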

How the data were processed

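RNA of 6 yeast cell pellets was sequenced as stranded mRNA libraries, per the labels' protocols. The authors deposited a whole-number estimated count for each gene, from StringTie files made after removal of duplicate reads, per the file headers. FastQC, HISAT2, SAMtools, Picard and DESeq2 and the build sacCer3 are named in the submitters' processing notes. No source used here gives versions or says whether counting used strand. Duplicate removal may lower abundant genes, which was not tested.

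The tables were joined by gene name, and 6213 of 6445 names matched RefSeq R64. The main test was edgeR 4.0.16 (R 4.3.3) with filterByExpr, TMM scaling and the group as the only term, with Benjamini-Hochberg adjustment over 6125 genes. The SE is the size of the log2 fold change over the square root of F, and 95% intervals use the t distribution on the fitted degrees of freedom. Alternatives were RLE factors, library totals, other filters, DESeq2 1.42.0, limma 3.58.1 (voom), the replicate number as a block, a GC-content correction (loess, span 0.5, genes of at least 5 CPM) and leaving out libraries. Members, lists and the rule for naming other genes (those past the threshold and up to 2 with the smallest adjusted p in each list) were chosen with earlier results of these data known. No 2 libraries agreed within sampling noise.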

Additional observations from a re-analysis of the deposited data

How the results depend on the processing

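None of the 40 genes passed under 15 of the 16 alternative fits, in which 0.244% to 3.66% of all tested genes passed apart from DESeq2 (14.6%), and HIS3 passed in the remaining 1, without parental replicate 1, so leaving out a library gave 0 to 1 higher and 0 lower. This includes the fit without both producer replicate 3 and parental replicate 2, chosen after seeing the data, which called 154 genes higher and 70 lower over all genes. Over all genes, where 49 were higher and 21 lower, DESeq2 called 464 and 378, the replicate block 80 higher, the replicate block with the GC-content correction 20 and 12, and leaving out a library between 13 and 582 higher and between 2 and 495 lower. The labels do not say whether replicate numbers pair the libraries. The correlations of same-numbered deviations were 0.238, -0.231 and -0.459, which with 3 libraries per strain cannot settle it.

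Of the 40 genes, 18 kept their direction in every fit. Without parental replicate 2 the median of the 40 genes was -0.01, and over all single libraries left out it ran from -0.01 to 0.24. By pathway that range was 0.00 to 0.34 for histidine, 0.00 to 0.24 for branched-chain, 0.06 to 0.24 for aromatic, -0.03 to 0.12 for lysine and -0.11 to 0.37 for arginine genes. The lysine median also moved, to 0.04 with library totals only and 0.00 with the GC-content correction, with or without the block. The LEU4 over LEU9 difference ran from -0.02 to 0.15. Fold changes crossed 0 as follows, and the cause was not tested. LYS2 was at 0.002 with RLE factors and DESeq2, 0.003 with limma-voom, 0.000 with the replicate block and the GC-content correction, and 0.003 with the 2 together. With library totals only, GCN4 and LEU3 were at -0.01, HIS7 at -0.02 and ILV2 at -0.03. With the GC-content correction, GCN4 was at -0.005, LEU2 at -0.01, HIS7 and ARO2 at -0.03, ILV3 and ILV6 at -0.05, LYS4 at -0.09, ILV2 at -0.11 and ARG3 at 0.10, and with the block added GCN4 was at -0.01, ARG3 at 0.11 and the others as before. Without both low libraries HIS6 and ILV2 were at -0.01 and HIS7 at -0.02. With single libraries left out, the genes that crossed 0 ran as follows: GCN4 from -0.04 to 0.11, HIS1 from -0.02 to 0.34, HIS4 from -0.02 to 0.47, HIS7 from -0.18 to 0.19, LEU2 from -0.01 to 0.25, LEU3 from -0.02 to 0.09, LEU4 from -0.01 to 0.37, ILV2 from -0.09 to 0.10, ILV3 from -0.05 to 0.24, ARO1 from -0.30 to 0.02, ARO3 from -0.06 to 0.18, ARO4 from -0.21 to 0.08, LYS2 from -0.14 to 0.11, LYS21 from -0.03 to 0.20, ARG1 from -0.09 to 0.59, ARG3 from -0.34 to 0.25, ARG4 from -0.11 to 0.37 and ARG8 from -0.17 to 0.07.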
